A study of Mus musculus with 21 samples.

Results

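Inguinal lymph nodes of *Ifnk* transgenic (TG) mice were compared with those of wild-type (WT) mice after UVB. The comparison held 6 of the 21 libraries of the series, 3 *Ifnk* TG libraries (numbered 10, 11 and 12) and 3 WT libraries (numbered 7, 8 and 9). They were taken by genotype and treatment from the labels. *Ifnk* TG mice carry *Ifnk*, the gene of interferon kappa, behind the keratin 14 promoter, which is active in basal epidermal keratinocytes. They were made on C57Bl/6 with a PiggyBac vector and backcrossed to BALB/c, and the WT mice were BALB/c bred at the same institution. Both irradiated groups were shaved on the back and given 250 mJ/cm2 of UVB at 310 nm on 3 days a week for 2 weeks. Their skin-draining nodes were taken after a further observation period of 2 weeks, pressed through a cell strainer and lysed, so each library is poly-A RNA of the mixed cells that passed it. The other 6 node libraries came from WT (1, 2 and 3) and *Ifnk* TG (4, 5 and 6) mice without UVB, and served to show whether a difference was there without irradiation. The remaining 9 libraries came from skin and were not used. The labels place all libraries in batch 1, give no age or sex for the node mice and do not say whether each library is a separate mouse, so errors and p-values cover the spread between libraries only.

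Interferon kappa is a type I interferon made mainly by keratinocytes. Type I interferons bind a shared receptor, made of IFNAR1 and IFNAR2, and activate transcription factors that bind interferon-stimulated response elements in DNA. These turn on antiviral genes such as *Isg15*, the *Ifit* genes and the *Oas* genes. A skin-draining lymph node receives lymph, migrating dendritic cells and soluble signals from the skin and holds mostly T cells and B cells on a scaffold of stromal and endothelial cells. The comparison asks whether the nodes behind an interferon-rich epidermis differ from WT nodes once both have been through UVB.

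The promoters of 2 type I interferon-stimulated genes with higher values in *Ifnk* TG nodes after UVB, *Bst2* and *Oas1a*, are shown because they carry the response element core. They are RefSeq promoters from 250 bases before to 50 bases after the start of the gene (GRCm38.p6), read 5′ to 3′ on the strand of the gene. Capitals mark the run that holds 2 overlapping matches to the core (GAAA, any 2 bases, GAAA), beginning 130 bases before the start of *Bst2* and 20 bases before that of *Oas1a*. The window of *Bst2* is chr8:71537423-71537722 (minus strand) and that of *Oas1a* is chr5:120907476-120907775 (minus strand).
Bst2: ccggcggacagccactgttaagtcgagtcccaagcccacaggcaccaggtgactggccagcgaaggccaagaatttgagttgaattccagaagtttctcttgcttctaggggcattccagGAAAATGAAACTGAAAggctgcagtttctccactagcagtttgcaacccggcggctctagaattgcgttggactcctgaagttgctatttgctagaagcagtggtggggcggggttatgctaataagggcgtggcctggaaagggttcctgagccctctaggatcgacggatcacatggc
Oas1a: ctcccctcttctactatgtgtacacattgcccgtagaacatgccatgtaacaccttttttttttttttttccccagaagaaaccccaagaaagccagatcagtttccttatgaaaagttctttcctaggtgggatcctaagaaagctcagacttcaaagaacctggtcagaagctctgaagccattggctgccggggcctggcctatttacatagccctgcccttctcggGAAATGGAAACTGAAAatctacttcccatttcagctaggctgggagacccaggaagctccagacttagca
The motif was searched on both strands, with overlapping matches counted. It was found in 429 of 10964 promoters of tested genes (3.91%), in 20 of 39 promoters of the type I interferon-stimulated gene list (51.3%) and in 11 of 14 of the interferon gamma list (78.6%). Among genes that were higher in *Ifnk* TG nodes after UVB at an unadjusted p under 0.05, 27 of 473 promoters held it (5.71%), and among those that were lower, 10 of 327 (3.06%). The windows of *Epsti1*, *Lgals3bp* and *Oasl2*, 3 other members with higher values, held no match.

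The 12 node libraries held between 27599809 and 36428435 counts, and the 6 irradiated ones between 27599809 and 34613256. A count of 3 in a library corresponds to between 0.0824 and 0.109 CPM (counts scaled to library size), for counting error alone. *Ifnk* had 0 counts in all 12 libraries and *Krt14* had 0 or 1, so expression of the transgene could not be checked in the nodes. The keratinocyte markers other than *Krt10* and *Dsp* summed to 0 to 3 counts in every library. Each library had between 2507 and 7084 counts of *Ddx3y* from the Y chromosome and only 3 to 42 of *Xist*, as in nodes of male mice. The T cell markers *Cd3e* and *Cd4* lay at 281 to 354 and 378 to 484 CPM in the 6 irradiated libraries, and *Blnk*, an adaptor of the B cell receptor, at 63.3 to 84.5 CPM, as in a node of mostly T and B cells.

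The 3 irradiated *Ifnk* TG libraries did not resemble each other as closely as the libraries of the other groups. Their mean correlation within the group was 0.970 to 0.973 on the log2 scale, against 0.984 to 0.988 for all other libraries. *Ifnk* TG 11 stood apart on the second principal component, at a score of 58.2 against -10.6 to 2.79 for the other 11 libraries. *Ifnk* TG 12 scored -8.17 on the first component, nearer to the nodes without UVB (-31.0 to -12.9) than to WT after UVB (22.8 to 39.6), whereas *Ifnk* TG 10 scored 25.3. *Ifnk* TG 11 scored 3.50 there, between those ranges. These scores rest on the 2000 most variable genes.

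**Figure D1:**
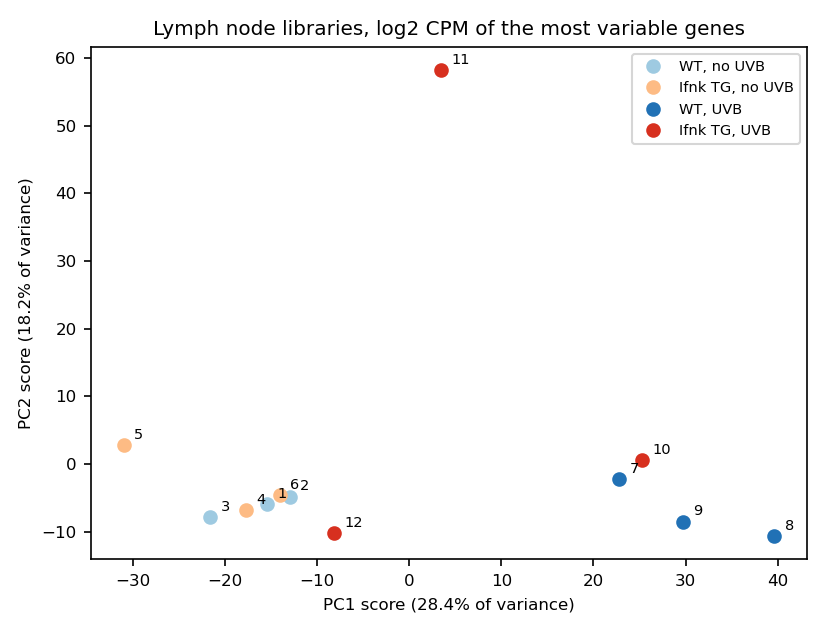
Scores of the 12 node libraries on the first 2 principal components of log2 CPM, in arbitrary units, with points coloured by group and numbered by library. The first component carries 28.4% and the second 18.2% of the variance. The 3 WT libraries after UVB lie together, while the 3 *Ifnk* TG libraries after UVB lie apart from each other.

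*Ifnk* TG 11 carried RNA of genes that mark the kidney. A list of 17 kidney genes, written after the data were seen, summed to 28064 counts there (0.0958% of the library) and to 150 to 272 counts in each of the other 11 libraries (0.000481% to 0.00086%). *Kap*, an androgen-regulated protein of the proximal tubule, had 11568 counts in library 11 and 0 to 3 elsewhere. *Umod*, the uromodulin of the thick ascending limb, had 2517 against 0, and *Slc34a1*, the phosphate transporter of the proximal tubule, had 4394 against 0 to 4. In all, 16 of the 17 genes were highest in library 11, and 15 were at least 10 times the next library. *Nphs1*, the nephrin gene of podocytes, was the exception with 78 counts against 50 to 132. The study also harvested kidneys in this experiment. Only 4 of the 17 genes passed the filter on low counts, and values without library 11 are given below for the results it moved most.

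**Figure D2:**
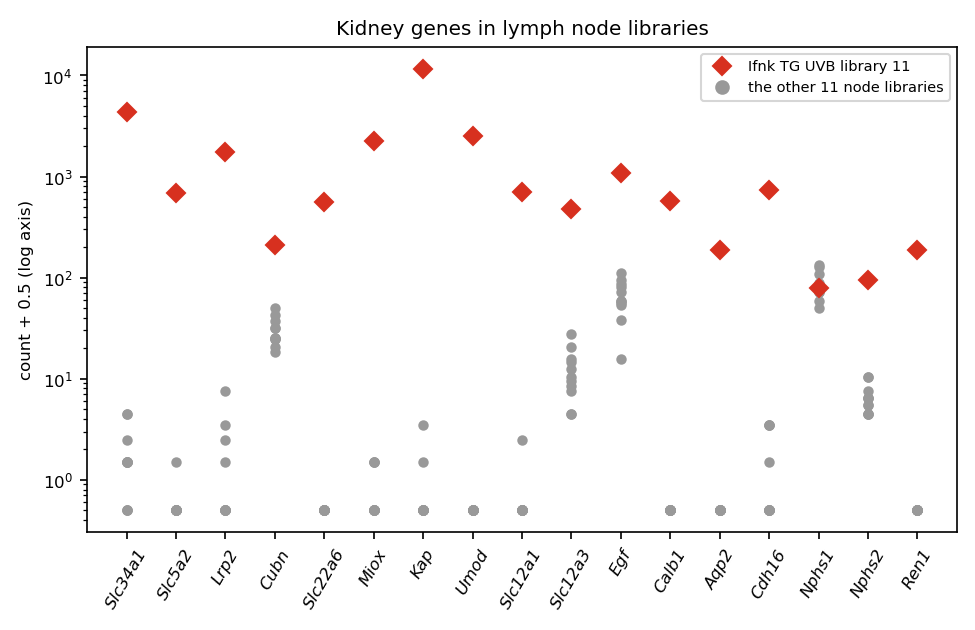
Counts (with 0.5 added, log axis) of 17 kidney genes in the 12 node libraries, with *Ifnk* TG 11 after UVB as red diamonds and the other 11 libraries as grey points. Library 11 lies at 28064 counts over the list, against at most 272 in any other library.

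Library 11 exceeded all 5 other irradiated libraries by more than 2-fold at 234 genes, where no other exceeded 16. *Ifnk* TG 12 was more than 2-fold below all others at 214 genes, against 1 to 8 for the rest. It also held the largest share of ribosomal protein RNA, 7.93% against 5.32% to 6.17%, and the smallest share of long noncoding RNA, 0.502% against 0.722% to 0.994%. WT 8 had the highest level of the heat shock genes, described below.

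No gene passed the threshold between *Ifnk* TG and WT nodes after UVB. By edgeR's quasi-likelihood test with Benjamini-Hochberg adjustment, 0 of 16173 genes (0%) had an adjusted p under 0.05. At an unadjusted p under 0.05 there were 1131 genes (6.99%), of which 670 were higher in *Ifnk* TG nodes (4.14%) and 461 lower (2.85%). All 3 *Ifnk* TG libraries lay above all 3 WT libraries at 872 genes (5.39%) and below them at 698 genes (4.32%). DESeq2 called 12 of the 18483 genes it tested (0.0649%), 8 higher and 4 lower. Without library 11, edgeR again called 0 genes, the counts at an unadjusted p under 0.05 were 376 higher and 235 lower, and DESeq2 called 2. Because no gene passed, the values of genes and lists below are given as higher or lower, with 95% confidence intervals of the log2 fold change (log2FC) of *Ifnk* TG over WT.

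The same test without UVB also gave 0 genes at an adjusted p under 0.05 (0%), with 286 higher (1.77%) and 263 lower (1.63%) at an unadjusted p under 0.05. DESeq2 called 4 of 11492 genes (0.0348%) there. These were *Glo1* and *Safb*, which were higher in *Ifnk* TG nodes, and *Ifih1* and *Ndfip2*, which were lower. The interaction, which tests whether the genotype difference after UVB differs from that without UVB, gave 0 genes (0%) by edgeR, with 487 above 0 at an unadjusted p under 0.05 (3.01%). DESeq2 called 8 of 14482 genes for the interaction (0.0552%), 4 of them above 0. Those 4 were *Ifih1*, the cytosolic RNA sensor MDA5, and *Lgals3bp*, *Phf11a* and *Ifit1bl2*, at log2 interactions of 1.85, 1.35, 2.42 and 2.46. These DESeq2 calls are named because they are few, after their values were seen.

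Type I interferon-stimulated genes were higher in *Ifnk* TG nodes after UVB in nearly the whole list. Of 55 genes, 54 were tested and 51 of these were higher, with a median log2FC of 0.57, whereas 8288 of all 16173 genes were higher with a median of 0.01. At an unadjusted p under 0.05, 5 members were higher, against 4.14% of all genes, and none was lower. None had an adjusted p under 0.05 (edgeR's quasi-likelihood test, Benjamini-Hochberg). The libraries of the 2 genotypes overlapped at all but 1 member.

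*Epsti1*, an interferon-induced epithelial-stromal protein, was at 77.7, 69.8 and 87.0 CPM in WT 7, 8 and 9 and at 97.6, 150 and 131 CPM in *Ifnk* TG 10, 11 and 12. The 3 *Ifnk* TG libraries all lay above the 3 WT libraries, and the log2FC was 0.69 (0.20 to 1.17). *Bst2*, which encodes tetherin and whose promoter is shown above, was at 53.1, 53.1 and 67.4 CPM in WT and 61.3, 103 and 82.6 CPM in *Ifnk* TG nodes. Here WT 9 lay above *Ifnk* TG 10, and the log2FC was 0.51 (0.10 to 0.91). *Oas1a*, which makes the activator of RNase L and also carries the motif, was at 2.55, 3.27 and 10.5 CPM in WT and 7.12, 34.8 and 22.5 CPM in *Ifnk* TG nodes. Again only WT 9 exceeded *Ifnk* TG 10, at a log2FC of 1.97 (0.38 to 3.56).

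*Oasl2*, an antiviral relative of the Oas proteins, was at 0.300, 0.763 and 1.502 CPM in WT and 0.843, 8.01 and 2.69 CPM in *Ifnk* TG nodes, a log2FC of 2.16 (0.34 to 3.98). *Lgals3bp*, a secreted galectin-binding glycoprotein, was at 73.8, 67.7 and 96.3 CPM in WT and 84.1, 155 and 118 CPM in *Ifnk* TG nodes, a log2FC of 0.59 (0.09 to 1.08). In both genes *Ifnk* TG 11 was the highest library and *Ifnk* TG 10 lay below WT 9. Without library 11 the log2FC were 0.56 for *Epsti1*, 0.33 for *Bst2*, 1.46 for *Oas1a*, 1.06 for *Oasl2* and 0.37 for *Lgals3bp*, and only that of *Epsti1* had an unadjusted p under 0.05. *Isg15*, a ubiquitin-like modifier chosen after its values were seen as a typical member, was at 5.47, 5.71 and 18.3 CPM in WT and 8.58, 46.5 and 19.4 CPM in *Ifnk* TG nodes.

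The libraries of a genotype differed widely among themselves. The mean of the list in each library, on the scale of centred log2(CPM + 0.5), was -0.64, -0.51 and 0.34 in WT 7, 8 and 9 and -0.27, 1.05 and 0.15 in *Ifnk* TG 10, 11 and 12. WT 9 was the second highest irradiated library and lay above *Ifnk* TG 10 and 12. The median log2FC was 0.14 without *Ifnk* TG 11, the library with kidney RNA, and 0.78 without WT 9. With *Xist*, whose count was low in every library and highest in library 11, as a covariate, the median was 0.17. As all libraries had the *Ddx3y* and *Xist* counts of male nodes, this covariate did not separate the sexes. Members at an unadjusted p under 0.05 numbered 1 without *Ifnk* TG 11, 1 without WT 7, 1 without WT 8 and 3 without *Ifnk* TG 12, against 21 without WT 9 and 19 without *Ifnk* TG 10. Among all 16173 genes the counts were 597, 1201, 490 and 1367, against 1026 without WT 9 and 2746 without *Ifnk* TG 10.

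Without UVB the same genes were lower in *Ifnk* TG nodes. All 54 tested members were lower, with a median log2FC of -1.04. Of these, 43 had an unadjusted p under 0.05, against 1.63% of all genes, although none had an adjusted p under 0.05 (edgeR). All 3 *Ifnk* TG libraries lay below all 3 WT libraries at 42 members, against 4.93% of all genes. The means of the list were -0.08, 1.19 and 0.56 in WT 1, 2 and 3 and -0.53, -0.57 and -0.68 in *Ifnk* TG 4, 5 and 6. WT 2 was the highest, and without it the median was -0.66 and 21 members had an unadjusted p under 0.05. *Isg15* was at 12.0, 53.1 and 41.9 CPM in WT and 11.0, 7.01 and 6.71 CPM in *Ifnk* TG nodes without UVB, so that only WT 1 was near the *Ifnk* TG level.

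The genotype difference thus had opposite signs with and without UVB. The interaction was above 0 at an unadjusted p under 0.05 in 46 of the 54 members, against 3.01% of all genes. The median log2 interaction was 1.67, whereas the smallest adjusted p among the members was 0.848 (edgeR, Benjamini-Hochberg). Leaving out each of the 12 node libraries in turn gave 37 to 51 members, the lowest without *Ifnk* TG 11. The members moved largely together from library to library, so the counts of members here and above are not 54 separate results. No test of the list as a whole was made.

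**Figure D3:**
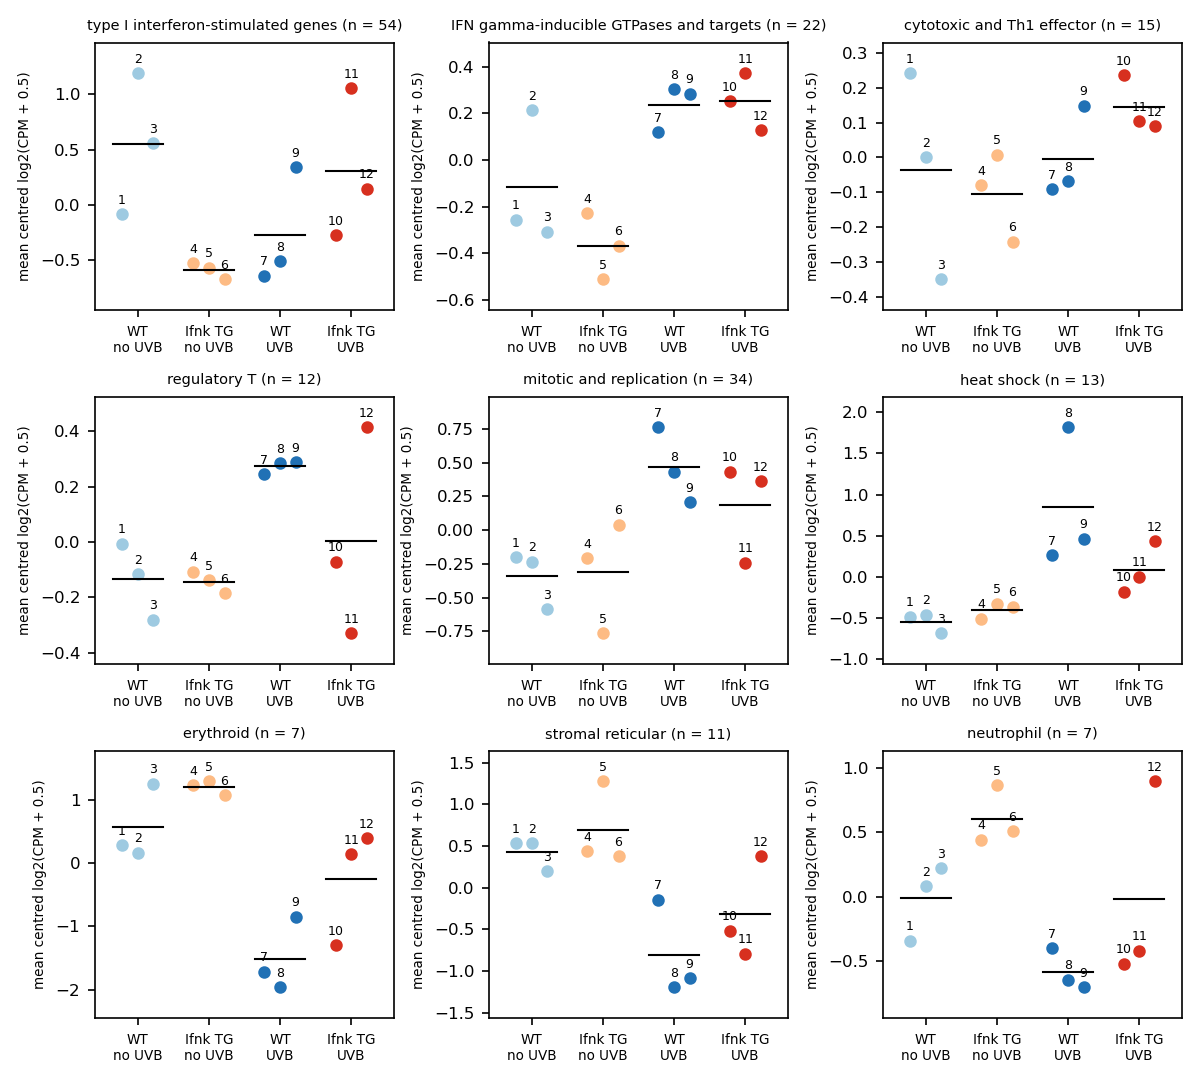
Mean level of 9 gene lists in each node library, as centred log2(CPM + 0.5) averaged over the tested members, by genotype and UVB, with the library number beside each point and a bar at the mean of each group. The type I interferon-stimulated genes were lowest in *Ifnk* TG nodes without UVB and spread from -0.27 to 1.05 in *Ifnk* TG nodes after UVB.

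Other parts of the interferon system differed less. The receptor genes *Ifnar1* and *Ifnar2*, chosen for their role, had log2FC of -0.02 and 0.04. Among 12 tested ligands and receptors, 3 were higher and 9 lower, with a median of -0.02. *Ifng*, the interferon of activated T and NK cells, was lower in all 3 *Ifnk* TG libraries, at 0.901, 0.835 and 0.826 CPM against 1.32, 2.00 and 1.59 CPM in WT. Its log2FC was -0.93 (-1.66 to -0.21), against 0.25 without UVB. *Ifngr1*, a chain of its receptor, was at 128, 145 and 184 CPM against 174, 225 and 160 CPM, and the groups overlapped.

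The interferon gamma-inducible GTPases and targets showed no common direction. Of 22 tested, 12 were higher and 10 lower, with none at an unadjusted p under 0.05 and a median of 0.02. *Irf1*, a transcription factor induced by interferon gamma, was at 283, 343 and 308 CPM in WT and 306, 266 and 266 CPM in *Ifnk* TG nodes. *Iigp1*, an immunity-related GTPase, was at 103, 108 and 108 CPM in WT and 128, 168 and 105 CPM in *Ifnk* TG nodes. Interferon regulatory factors had a median of -0.03 over 9 genes, with *Irf4* at a log2FC of -0.22 (-0.63 to 0.19).

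Genes of antigen presentation through MHC class I were higher in 13 of 17 cases, by small amounts, with a median of 0.10 and none at an unadjusted p under 0.05. *Tapbp*, the tapasin that loads peptide onto class I, was at 392, 389 and 415 CPM in WT and 408, 522 and 482 CPM in *Ifnk* TG nodes, a log2FC of 0.24 (-0.01 to 0.48). *Psmb10*, an immunoproteasome subunit, had a log2FC of 0.18 (-0.04 to 0.41). Of 11 class II genes 7 were higher and 4 lower, with a median of 0.04. *H2-Ob*, a B cell modulator of peptide loading, had a log2FC of -0.35 (-0.79 to 0.10), and *Ctss*, the cathepsin that cuts the invariant chain, 0.18 (-0.09 to 0.44).

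Nucleic acid sensors were higher in 10 of 14 cases, with a median of 0.14. *Mavs*, the adaptor of the RNA sensors, was lower at an unadjusted p under 0.05, at 37.7, 38.2 and 46.1 CPM against 40.8, 60.9 and 49.0 CPM in WT (log2FC -0.30, -0.59 to -0.02). *Ddx58*, which encodes the RNA sensor RIG-I, was at 158, 219 and 168 CPM against 130, 148 and 172 CPM. Inflammatory chemokines had a median of 0.43 over 13 genes at low levels, and none had an unadjusted p under 0.05. That median was 0.05 without WT 9, 0.0005 without *Ifnk* TG 10 and 0.03 by limma voom with quality weights. *Ccl12*, a ligand of CCR2 on monocytes, was at 0.451, 0.436 and 0.460 CPM in WT and 0.785, 0.870 and 0.612 CPM in *Ifnk* TG nodes, with no overlap. *Ccl4*, a chemokine of activated myeloid cells and lymphocytes, was at 0.0900 to 0.337 CPM in WT and 0.349 to 0.487 CPM in *Ifnk* TG nodes.

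**Figure D4:**
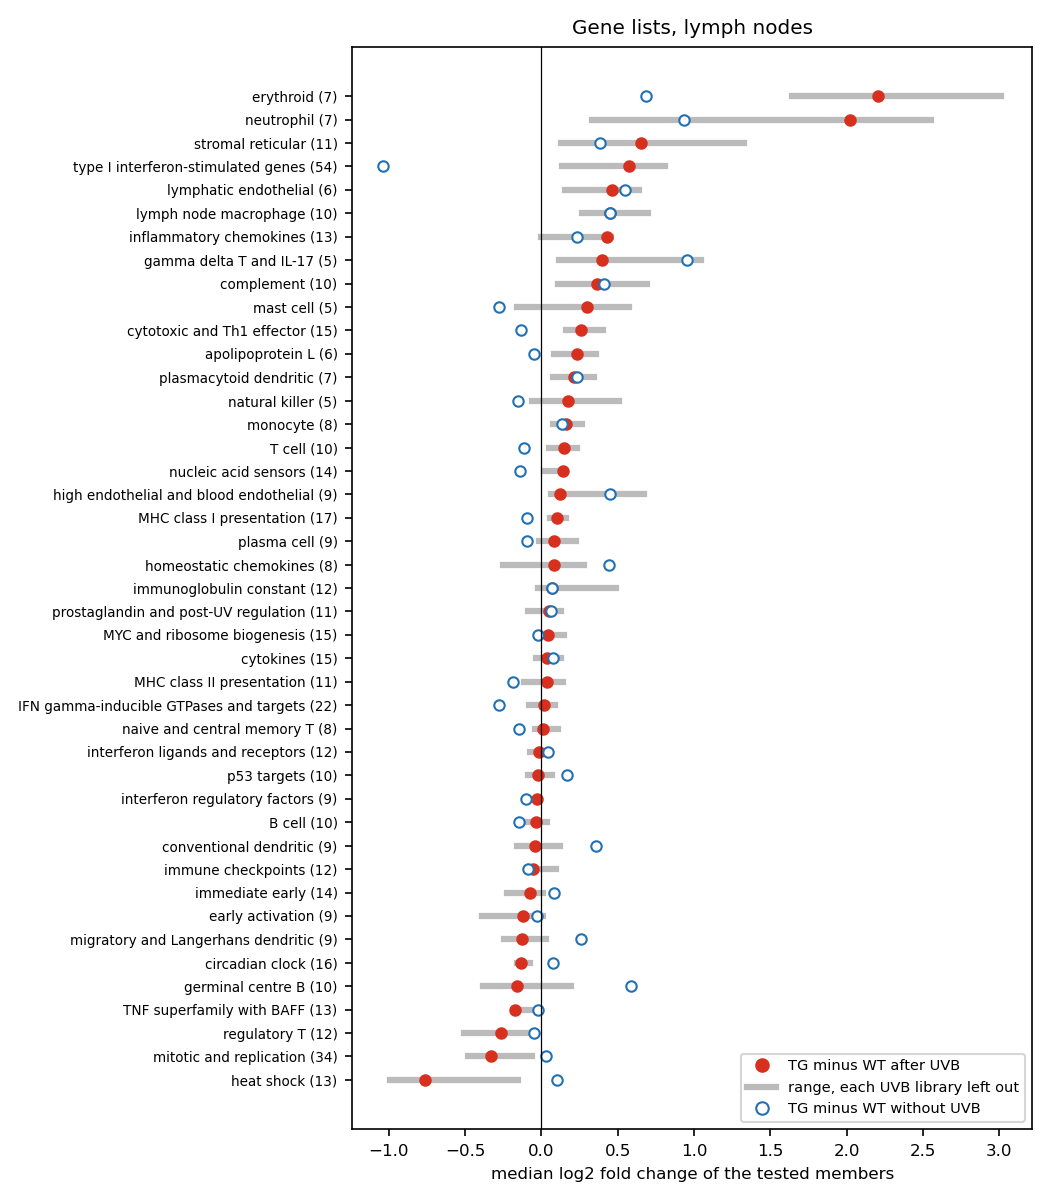
Median log2 fold change of *Ifnk* TG over WT nodes for gene lists, with the number of tested members in brackets. Red points are after UVB, grey bars the range when each of the 6 irradiated libraries was left out in turn, and open blue points the values without UVB. The type I interferon-stimulated genes are at 0.57 after UVB and -1.04 without it.

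CD8 T cell genes and some cytotoxic effector genes were higher in *Ifnk* TG nodes after UVB. *Cd8a* was at 299, 372 and 376 CPM in WT and 434, 505 and 394 CPM in *Ifnk* TG nodes, and *Cd8b1*, the other chain of the coreceptor, at 194, 216 and 240 CPM and 217, 307 and 288 CPM. The *Ifnk* TG libraries lay above the WT libraries for *Cd8a* without overlap, and *Ifnk* TG 10 overlapped WT for *Cd8b1*. The log2FC were 0.35 (0.12 to 0.58) and 0.32 (0.07 to 0.57), against -0.10 and -0.21 without UVB. Of 10 T cell genes, 8 were higher with a median of 0.15, these 2 at an unadjusted p under 0.05, against 4.14% of all genes. Without library 11 the log2FC were 0.26 for *Cd8a* and 0.24 for *Cd8b1*. The cells of a node were measured together, so more cells of a type and more RNA per cell cannot be told apart.

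*Nkg7*, a granule protein of cytotoxic T cells and NK cells, had the smallest p of its list. It was at 56.4, 54.1 and 70.6 CPM in WT and 75.8, 92.6 and 79.1 CPM in *Ifnk* TG nodes, with no overlap and a log2FC of 0.45 (0.22 to 0.68), against -0.16 without UVB. *Cxcr3*, the receptor that guides effector T cells to interferon-induced chemokines, had a log2FC of 0.33 (0.03 to 0.63), and *Eomes*, a transcription factor of effector and memory CD8 cells, 0.42 (0.02 to 0.82). *Eomes* was highest in *Ifnk* TG 11, and its log2FC was 0.14 without that library, where that of *Nkg7* was 0.37. In the list of 15 cytotoxic and Th1 genes 12 were higher, with a median of 0.26, and *Ifng* was lower as given above. The NK cell list had a median of 0.17 over 5 genes, with *Ncr1*, an activating NK receptor, at 7.57, 7.56 and 10.6 CPM in WT and 19.9, 11.0 and 5.35 CPM in *Ifnk* TG nodes. *Klrd1*, which encodes CD94 of NK cells, had a log2FC of 0.14 (-0.23 to 0.52).

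Regulatory T cell genes were lower in 10 of 12 cases, with a median of -0.27. *Ikzf2*, which encodes Helios, was at 45.7, 59.95 and 54.6 CPM in WT and 39.3, 31.0 and 45.7 CPM in *Ifnk* TG nodes, a log2FC of -0.47 (-0.81 to -0.12). *Ctla4*, an inhibitory receptor of regulatory and activated T cells, was at 29.2, 26.6 and 23.7 CPM in WT and 20.3, 9.74 and 21.9 CPM in *Ifnk* TG nodes, a log2FC of -0.61 (-1.20 to -0.02). Both were below WT in all 3 *Ifnk* TG libraries, although *Ifnk* TG 12 and WT 7 were nearly equal for *Ikzf2*. *Foxp3*, the defining transcription factor, given for its role, was at 58.8, 65.3 and 64.1 CPM in WT and 50.02, 43.7 and 74.95 CPM in *Ifnk* TG nodes, a log2FC of -0.16 (-0.53 to 0.22). The list mean was 0.25 to 0.29 in WT, -0.07 and -0.33 in *Ifnk* TG 10 and 11 and 0.41 in *Ifnk* TG 12, so that library 12 lay above every WT library. The median was -0.09 without library 11 and -0.50 without library 12, and 0 and 10 members then had an unadjusted p under 0.05, against 2 with all libraries. Among all 16173 genes, 597 had such a p without library 11 and 1367 without library 12, against 1131 with all libraries. Without library 11 the log2FC of *Ikzf2* was -0.32 and that of *Ctla4* -0.31.

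Genes of T cell receptor signalling and activation were mixed. *Nr4a1*, an immediate early gene of antigen receptor signalling, was at 39.8, 47.8 and 33.2 CPM in WT and 30.0, 20.9 and 31.8 CPM in *Ifnk* TG nodes, with no overlap and a log2FC of -0.55 (-0.92 to -0.17), against 0.29 without UVB. *Jun*, a subunit of AP-1, was at 16.6, 18.7 and 15.05 CPM and 13.4, 11.5 and 14.8 CPM, also without overlap, at a log2FC of -0.34 (-0.64 to -0.04). *Tox*, a transcription factor of persistently stimulated T cells, had a log2FC of 0.31 (0.04 to 0.58), with *Ifnk* TG 10 between the WT libraries. *Icos*, a costimulatory receptor, had a log2FC of -0.30 (-0.70 to 0.10). The median was -0.12 over 9 early activation genes, -0.08 over 14 immediate early genes and -0.05 over 12 immune checkpoint genes.

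Cytokine genes gave 1 member at an unadjusted p under 0.05. *Csf1*, the growth factor of macrophages, was at 13.7, 13.7 and 14.9 CPM in WT and 8.52, 9.92 and 11.6 CPM in *Ifnk* TG nodes, with no overlap and a log2FC of -0.50 (-0.91 to -0.08). *Ltb*, the lymphotoxin chain that maintains node structure, had a log2FC of 0.22 (-0.06 to 0.51). In the TNF superfamily, *Tnfsf9*, the ligand of the costimulatory receptor 4-1BB, was at 1.77, 5.31 and 2.02 CPM in WT and 1.08, 0.487 and 1.41 CPM in *Ifnk* TG nodes, a log2FC of -1.60 (-2.64 to -0.56). *Tnfsf13*, which encodes APRIL, was at 0.961, 1.13 and 0.950 CPM and 1.86, 1.84 and 1.32 CPM, and was 0.83 log2 units higher without UVB as well. Homeostatic chemokine genes had a median of 0.08, with *Ccr7*, which guides T cells and dendritic cells into the node, at a log2FC of 0.11 (-0.07 to 0.30). *Cxcr4* was at 281, 379 and 199 CPM in WT and 74.8, 99.4 and 345 CPM in *Ifnk* TG nodes, where only library 12 was at the WT level.

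**Figure D5:**
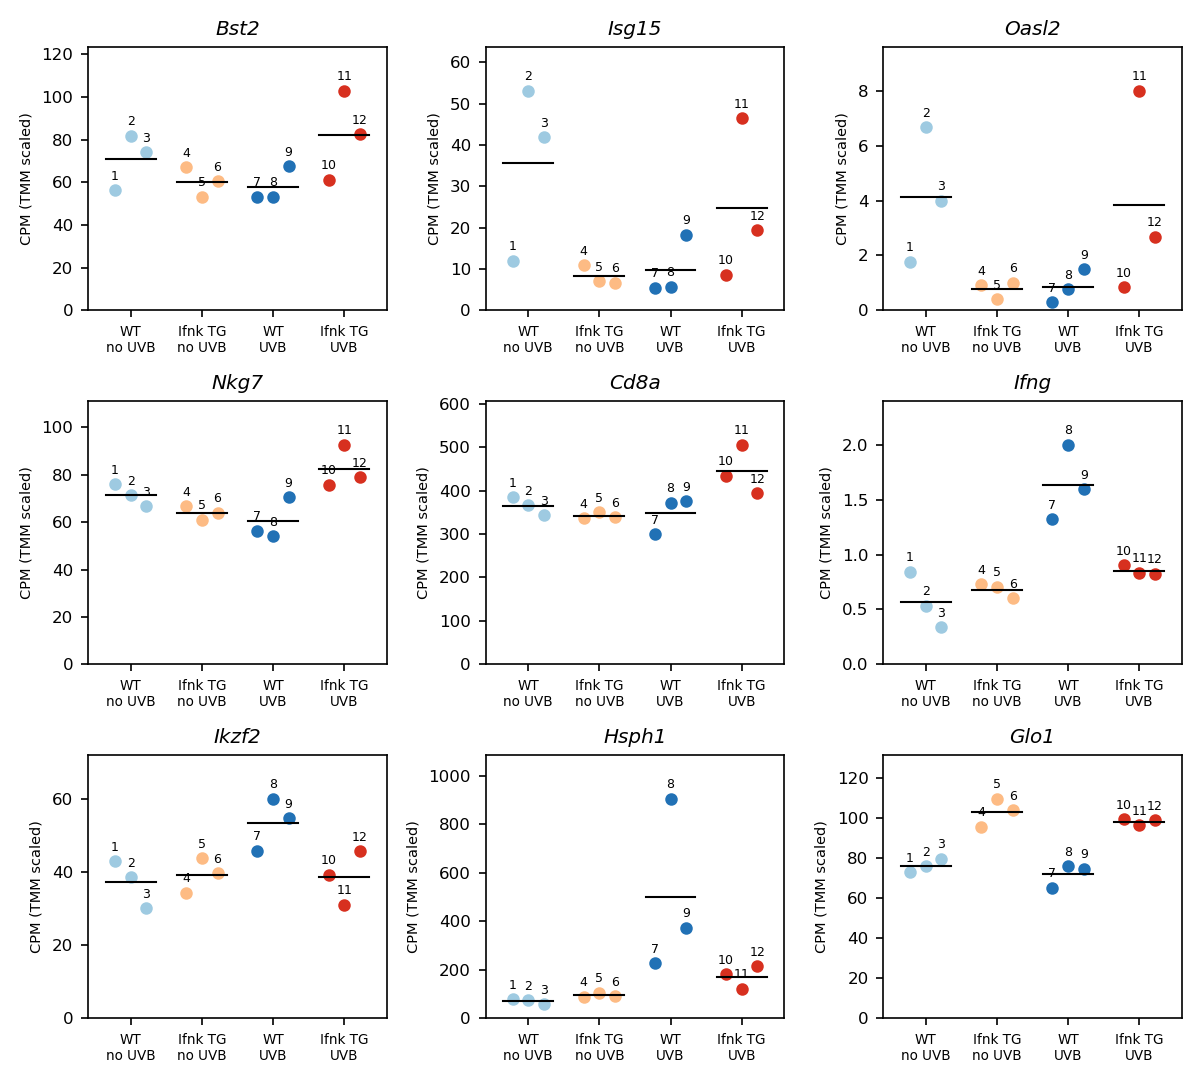
CPM of 9 genes in each node library by genotype and UVB, with the library number beside each point and a bar at the mean of each group. *Nkg7* and *Cd8a* were higher and *Ifng* lower in all 3 *Ifnk* TG libraries after UVB than in the 3 WT libraries, and *Glo1* was higher in *Ifnk* TG nodes with and without UVB.

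Mitotic and replication genes were lower in 30 of 34 cases, with a median of -0.33. *Hmmr*, a spindle protein, was at 11.1, 8.58 and 6.47 CPM in WT and 6.25, 3.41 and 5.54 CPM in *Ifnk* TG nodes, with no overlap and a log2FC of -0.78 (-1.52 to -0.04). *Birc5*, the survivin of the chromosomal passenger complex, was at 10.2, 6.83 and 5.88 CPM and 6.37, 3.79 and 5.60 CPM, a log2FC of -0.54 (-1.14 to 0.06). Library 11 was the lowest in both. Without it the median of the list was -0.06, the log2FC of *Hmmr* was -0.55 and that of *Birc5* -0.34, and 0 members had an unadjusted p under 0.05, against 1 with it. Genes of MYC and ribosome biogenesis had a median of 0.04 over 15 genes, with *Nop56*, a nucleolar protein, at -0.21 (-0.47 to 0.04) and *Odc1*, the first enzyme of polyamine synthesis, at 0.25 (-0.10 to 0.61).

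Heat shock genes were lower in 11 of 13 cases, 8 of them at an unadjusted p under 0.05 (2.85% of all genes were lower at that p), with a median of -0.76. The library WT 8 was far above the others. *Hsph1*, a cofactor of HSP70, was at 228, 905 and 373 CPM in WT 7, 8 and 9 and 181, 123 and 214 CPM in *Ifnk* TG nodes, a log2FC of -1.54 (-2.52 to -0.56). *Dnaja1*, a cochaperone, was at 539, 1250 and 650 CPM and 375, 333 and 546 CPM, a log2FC of -0.96 (-1.63 to -0.29). *Hspa1b*, an inducible HSP70 gene that shares sequence with *Hspa1a*, was at 6.97, 123 and 6.53 CPM and 1.10, 5.12 and 3.82 CPM. WT 8 was the highest library for each, and without it the median of the list was -0.15 and 3 members had an unadjusted p under 0.05. Among all 16173 genes, 490 then had such a p. The list mean lay at -0.68 to -0.32 in all 6 nodes without UVB and at -0.18 to 0.44 in *Ifnk* TG nodes after UVB.

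Other responses to UVB gave few differences. Among prostaglandin and post-UV genes, *Ahr*, the aryl hydrocarbon receptor, was lower, at 6.69, 5.36 and 8.05 CPM against 9.97, 8.04 and 9.56 CPM in WT, a log2FC of -0.46 (-0.83 to -0.08). *Vdr*, the vitamin D receptor, had a log2FC of 1.57 (0.15 to 2.98), which was 0.26 without library 11. The p53 targets had a median of -0.02 over 10 genes, with *Sesn2*, a stress-induced inhibitor of mTORC1, at -0.31 (-0.66 to 0.03) and *Phlda3*, an inhibitor of AKT, at 0.66 (-0.20 to 1.51). Among 16 clock genes, 12 were lower with a median of -0.13, while *Nr1d1*, the repressor REV-ERB alpha, was at 4.36, 3.599 and 2.91 CPM in WT and 4.86, 5.81 and 5.84 CPM in *Ifnk* TG nodes, a log2FC of 0.60 (0.21 to 0.99). *Per2*, a repressor of the clock, had a log2FC of -0.28 (-0.56 to 0.01). The hour at which nodes were taken is not given by the labels.

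B cell genes had a median of -0.04 over 10 genes. *Blnk* was at 84.0, 73.7 and 84.5 CPM in WT and 75.3, 63.3 and 79.3 CPM in *Ifnk* TG nodes, which overlapped, and had a log2FC of -0.15 (-0.53 to 0.23). Germinal centre genes had a median of -0.16, with *Il21*, the cytokine of follicular helper T cells, at -0.73 (-1.87 to 0.41) and *Gcsam* at -0.44 (-1.58 to 0.71). Both were highest in WT 7. Plasma cell genes had a median of 0.08, with *Sdc1*, which encodes CD138, at 3.66, 2.84 and 2.64 CPM in WT and 3.93, 3.79 and 4.44 CPM in *Ifnk* TG nodes. Immunoglobulin genes took 0.216% to 0.271% of the WT libraries and 0.225% to 0.286% of the *Ifnk* TG libraries, which overlapped. Among their constant regions, *Igha* had a log2FC of 1.20 (-0.07 to 2.46) and *Iglc1*, which shares sequence with its neighbours, 0.49 (-0.08 to 1.07).

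Plasmacytoid dendritic cell genes, which mark the main blood-borne source of type I interferon, were higher in 6 of 7 cases with a median of 0.21. Without UVB all 7 were higher, with a median of 0.23. *Pacsin1* was at 61.3, 49.7 and 52.7 CPM in WT and 59.2, 73.2 and 77.7 CPM in *Ifnk* TG nodes, a log2FC of 0.36 (0.10 to 0.62). *Klk1*, a kallikrein that the kidney also makes, had a log2FC of 0.83 (0.21 to 1.45), which was 0.45 without library 11. Conventional dendritic cell genes had a median of -0.04, with *Batf3*, a factor of the cross-presenting lineage, at 0.901, 0.800 and 1.07 CPM in WT and 0.582, 0.278 and 0.765 CPM in *Ifnk* TG nodes, without overlap. Its log2FC was -0.76 (-1.75 to 0.23). *Zbtb46*, a factor that marks conventional dendritic cells, was also lower without overlap, at -0.32 (-0.96 to 0.31). Migratory and Langerhans cell genes had a median of -0.12, with *Fscn1*, an actin bundler of mature dendritic cells, at 0.23 (-0.17 to 0.63) and *Socs2* at -0.30 (-0.79 to 0.20).

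Macrophage and complement genes were higher on the median with and without UVB. Lymph node macrophage genes were higher in 9 of 10 cases, with a median of 0.45 after UVB and 0.45 without it. The median after UVB was 0.27 without *Ifnk* TG 12 and 0.70 without *Ifnk* TG 11, and fell to 0.13 under another setting. *C1qa*, *C1qb* and *C1qc* belong to both the macrophage and the complement list. *Marco*, a scavenger receptor of medullary macrophages, was at 2.46, 4.51 and 4.84 CPM in WT and 5.21, 5.22 and 11.5 CPM in *Ifnk* TG nodes, without overlap. *Lyve1*, a hyaluronan receptor of lymphatic endothelium and some macrophages, had a log2FC of 0.82 (-0.12 to 1.75). All 10 complement genes were higher, with a median of 0.37 against 0.41 without UVB, among them *C2* at 0.69 (-0.15 to 1.53) and *C1qb* at 0.52 (-0.15 to 1.18). With 1 irradiated library left out, the complement median ranged from 0.11 without WT 8 to 0.69 without WT 7, and was 0.14 without *Ifnk* TG 12 and 0.19 without WT 9. None of these genes had an unadjusted p under 0.05 after UVB.

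Monocyte genes were higher in all 8 cases, with a median of 0.16. *Ly6c2*, the surface marker of inflammatory monocytes, which some memory T cells also carry, was at 74.2, 76.9 and 95.3 CPM in WT and 85.3, 172 and 115 CPM in *Ifnk* TG nodes, a log2FC of 0.59 (0.10 to 1.09) against -0.46 without UVB. It was the 1 member at an unadjusted p under 0.05, and without library 11 its log2FC was 0.30 and 0 members had such a p. *Ms4a4c* had a log2FC of 0.34 (-0.22 to 0.90). Neutrophil genes were near the detection limit. Of 13 genes 7 were tested, all 7 were higher, and the median of 2.02 was 0.33 without *Ifnk* TG 12. In the nodes without UVB all 7 were higher as well, with a median of 0.94. *S100a9*, a calcium-binding protein of neutrophils, was at 0.420, 0.254 and 0.0310 CPM in WT and 0.436, 1.01 and 3.70 CPM in *Ifnk* TG nodes. *Mmp8*, the neutrophil collagenase, was at 0.0300, 0 and 0 CPM in WT and 0.0580, 0.174 and 0.887 CPM in *Ifnk* TG nodes.

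Erythroid genes were the list with the highest median after UVB, 2.20 over 7 tested of 12, with 6 higher at an unadjusted p under 0.05, against 4.14% of all genes. That count was 1 without *Ifnk* TG 12 and 2 without WT 7 or WT 8. Among all 16173 genes, 1367, 1201 and 490 had such a p in these settings, in either direction. In the nodes without UVB all 7 tested erythroid genes were higher in *Ifnk* TG, with a median of 0.69. *Hba-a2*, an alpha globin gene that shares sequence with *Hba-a1*, was at 5.11, 4.00 and 11.7 CPM in WT and 8.70, 40.5 and 50.2 CPM in *Ifnk* TG nodes, a log2FC of 2.25 (0.76 to 3.74). *Hbb-bs*, a beta globin gene, was at 5.53, 4.54 and 15.6 CPM and 10.3, 43.6 and 66.4 CPM, a log2FC of 2.22 (0.67 to 3.77). In both, *Ifnk* TG 10 lay below WT 9, and the other 2 *Ifnk* TG libraries lay above every WT library. Haemoglobin genes took 0.00104% to 0.00387% of the WT libraries and 0.00262% to 0.0149% of the *Ifnk* TG libraries, and 0.0120% to 0.0303% of the nodes without UVB. *Gata1*, the transcription factor of erythroid precursors, had a log2FC of -0.17. The part that blood left in the nodes had in this was not tested.

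Stromal and endothelial genes were higher on the median in *Ifnk* TG nodes with and without UVB, at low levels. All 11 stromal reticular genes were higher after UVB, with a median of 0.65 that was 0.13 without *Ifnk* TG 12. Without UVB 10 of them were higher, with a median of 0.39. *Lum*, a proteoglycan of collagen matrix, was at 0.180, 0.218 and 0.0920 CPM in WT and 0.494, 0.383 and 0.765 CPM in *Ifnk* TG nodes, without overlap. *Col3a1*, a fibrillar collagen, was at 5.05, 2.15 and 2.15 CPM and 6.51, 2.71 and 11.5 CPM, a log2FC of 1.15 (0.02 to 2.28). Among 9 genes of high endothelial and blood endothelial cells, 6 were higher after UVB, with a median of 0.13. Without UVB 7 were higher, with a median of 0.45. *Clec14a*, a lectin of blood vessel endothelium, was at 0.390, 0.145 and 0.215 CPM in WT and 0.698, 1.25 and 1.499 CPM in *Ifnk* TG nodes. All 3 *Ifnk* TG libraries lay above WT, the log2FC was 2.16 (1.21 to 3.12) and 2.11 without library 11, and DESeq2 called it (adjusted p = 0.0264). In nodes without UVB *Clec14a* was at 1.06, 1.44 and 1.41 CPM in WT and 1.65, 2.61 and 1.33 CPM in *Ifnk* TG, a log2FC of 0.51.

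*Chst4*, a sulfotransferase of high endothelial venules, had a log2FC of 1.58 (0.20 to 2.96) after UVB and 1.38 without it, and *Cdh5*, the cadherin of endothelial junctions, 0.41 (0.00 to 0.82) and 0.40. *Prox1*, the transcription factor of lymphatic endothelium, was at 0.541, 0.509 and 1.07 CPM in WT and 1.48, 1.32 and 1.65 CPM in *Ifnk* TG nodes, without overlap and at a log2FC of 1.06 (0.27 to 1.85). The 6 lymphatic endothelial genes had a median of 0.46 after UVB and 0.55 without it, and the first was 0.16 without *Ifnk* TG 12 and 0.11 by limma voom. *Fabp4*, the fatty acid carrier of adipocytes and capillary endothelium, had a log2FC of 2.10 (0.65 to 3.55), against -0.58 without UVB. *Lipe*, the hormone-sensitive lipase of adipocytes, had 0.14 (-0.12 to 0.40), and only 3 of 8 adipocyte genes were tested.

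Of the remaining lists, none held a gene at an unadjusted p under 0.05. The gamma delta T and IL-17 genes had a median of 0.40 over 5 genes (0.11 without WT 8 and 1.05 without WT 7), with *Trdc*, the delta chain constant region, at 0.25 (-0.08 to 0.59). Naive and central memory T cell genes had a median of 0.01, with *Il7r* at -0.39 (-0.83 to 0.04) and *S1pr1*, the receptor for exit from the node, at 0.16 (-0.05 to 0.38). Mast cell genes had a median of 0.30 over 5 genes (-0.16 without *Ifnk* TG 10), with *Tpsb2* at 0.69 (-0.31 to 1.69) and *Cma1* at 0.30 (-0.50 to 1.10). Apolipoprotein L genes had a median of 0.23 over 6, with *Apol7e* at 0.24 (-0.15 to 0.63) and *Apol9b* at 0.37 (-0.29 to 1.04), which share sequence with their relatives. *Krt10* and *Dsp* had -0.29 (-0.99 to 0.40) and 0.36 (-0.65 to 1.38), and the muscle genes *Tnnt3* and *Mylpf* -0.68 (-2.31 to 0.95) and 0.12 (-0.43 to 0.66). Of the sex-linked genes, *Uty* had 0.29 (-0.25 to 0.83) and *Xist* 1.43 (-0.18 to 3.03), which was 0.16 without library 11. No milk protein or other mammary gene of the list passed the filter.

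The genes that DESeq2 called are named because they are few, after their values were seen. The smallest p in edgeR as well was that of *Gm43802*, a processed pseudogene at chr3:142547882-142548518 that lies inside *Gbp7*, a guanylate-binding protein gene, on the same strand. It was at 2.82, 2.15 and 3.00 CPM in WT and 0.204, 0 and 0.0920 CPM in *Ifnk* TG nodes, without overlap. The log2FC was -4.64 (-6.02 to -3.27), with an adjusted p of 0.0757 by edgeR's quasi-likelihood test and 5.97e-09 by DESeq2, and it was 0.22 without UVB. *Gbp7* itself had a log2FC of -0.02 (-0.38 to 0.34), and reads of the pseudogene cannot be told apart with certainty from those of its host gene and of genes of like sequence. All other genes had an adjusted p of at least 0.673 in edgeR.

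*Glo1*, the glyoxalase that clears methylglyoxal, was higher in *Ifnk* TG nodes with and without UVB. It was at 65.1, 75.8 and 74.7 CPM in WT and 99.3, 96.3 and 98.6 CPM in *Ifnk* TG nodes after UVB, and at 72.8, 75.8 and 79.6 CPM and 95.5, 109 and 104 CPM without it. The genotypes did not overlap in either condition, with log2FC of 0.45 (0.27 to 0.63) and 0.43. DESeq2 gave adjusted p of 0.00657 and 0.0127. The gene lies at chr17:30584936-30626871, and *Glo1-ps*, a processed pseudogene on chromosome 2 that shares its sequence, had log2FC of 0.56 and 0.44. Its neighbours *Btbd9* and *Dnah8* had log2FC of 0.19 and -0.19 after UVB.

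Of the other DESeq2 calls, *Gm4951*, a gene of the interferon-inducible GTPase family, was at 2.10, 1.34 and 1.81 CPM in WT and 3.93, 7.73 and 5.35 CPM in *Ifnk* TG nodes. All 3 *Ifnk* TG libraries lay above WT, the log2FC was 1.69 (0.90 to 2.47) and 1.42 without library 11, against 0.40 without UVB. *Mat2a*, the enzyme that makes S-adenosylmethionine, was at 293, 499 and 331 CPM and 259, 194 and 182 CPM, a log2FC of -0.82 (-1.20 to -0.44), which was -0.56 without WT 8. In nodes without UVB it was at 188, 204 and 194 CPM in WT and 198, 209 and 204 CPM in *Ifnk* TG, a log2FC of 0.06. *Itga7*, a laminin receptor, was at 7.87, 6.47 and 6.34 CPM and 4.33, 3.83 and 2.91 CPM, a log2FC of -0.90 (-1.30 to -0.50) after UVB and -0.43 without it. *Col4a1*, a basement membrane collagen, was at 4.21, 2.04 and 2.79 CPM and 4.88, 9.33 and 9.30 CPM, a log2FC of 1.37 (0.69 to 2.06). In nodes without UVB it was at 7.39, 7.62 and 6.36 CPM in WT and 6.43, 11.2 and 6.28 CPM in *Ifnk* TG, a log2FC of 0.16.

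*Fhl1*, *Podxl*, *Sod3* and *Sfrp1* completed the higher calls and were highest in *Ifnk* TG 11, the library with kidney RNA. *Podxl*, the podocalyxin of podocytes and endothelium, was at 0.150, 0.109 and 0.0310 CPM in WT and 0.0870, 7.66 and 0.704 CPM in *Ifnk* TG nodes. *Sod3*, the extracellular superoxide dismutase, was at 0.661, 0.327 and 0.490 CPM and 0.756, 10.2 and 1.38 CPM. *Fhl1* was at 4.11 CPM in library 11 and at most 0.306 CPM in the other 5 irradiated libraries, and *Sfrp1* had 132 counts there and at most 9 in those 5. Without library 11, DESeq2 called only *Gm43802* and *Tnfrsf19*.

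A small group of genes differed in the same direction with and without UVB. At an unadjusted p under 0.05 in both, 34 genes were higher in *Ifnk* TG nodes and 5 lower, while 24 genes had opposite signs. Over all 16173 genes, 4.14% were higher and 2.85% lower at that p after UVB, and 1.77% and 1.63% without it. Whether the 34, 5 and 24 genes exceed the overlap to be expected from these shares was not tested. The 4 conditions share no library between these comparisons. *Tnfrsf19*, a TNF receptor family member at low level in lymphocytes, was at 5.35, 6.87 and 7.39 CPM in WT and 1.37, 2.78 and 1.38 CPM in *Ifnk* TG nodes after UVB, and at 5.97, 5.36 and 6.88 CPM and 0.730, 3.01 and 3.11 CPM without it. The genotypes did not overlap, with log2FC of -1.83 (-2.78 to -0.89) and -1.41. *Dok2*, an adaptor that dampens T cell receptor signalling, was at 90.4, 107 and 103 CPM in WT and 74.8, 34.4 and 31.4 CPM in *Ifnk* TG nodes after UVB, and at 89.1, 84.9 and 82.3 CPM and 32.1, 36.0 and 56.6 CPM without it. Here too the genotypes did not overlap, with log2FC of -1.09 (-1.79 to -0.40) and -1.04, and edgeR called it only when *Ifnk* TG 10 was left out (adjusted p = 0.038). Both lie on chromosome 14, *Tnfrsf19* at chr14:60963875-61046490 and *Dok2* at chr14:70766036-70778495.

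Of the genes higher in both conditions, *Ctnnd1*, the p120 catenin of cell junctions, had log2FC of 0.83 (0.36 to 1.29) after UVB and 0.70 without it, and *Tjp1*, a tight junction protein, 0.82 (0.30 to 1.34) and 0.68. *Gng11* had 1.43 and 1.16, *Pcdh17* 1.84 and 1.5, and *Tgm2*, a crosslinking enzyme of matrix and macrophages, 0.55 and 0.61. *Tyrobp*, the signalling adaptor of myeloid and NK receptors, was at 22.3, 18.3 and 18.6 CPM in WT and 24.9, 22.1 and 30.2 CPM in *Ifnk* TG nodes after UVB, where *Ifnk* TG 11 lay just below WT 7. These genes were named after their values were seen.

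Genes of the mitochondrial genome were also looked at after the data were seen. Of 15 tested, all 15 were higher in *Ifnk* TG nodes after UVB, 11 at an unadjusted p under 0.05 (4.14% of all genes) and 12 without overlap between the genotypes (5.39% of all genes), with a median of 0.42 against 0.12 without UVB. *mt-Co3*, a subunit of cytochrome oxidase, had a log2FC of 0.48 (0.10 to 0.86), and *mt-Rnr2*, a ribosomal RNA, 0.37 (0.10 to 0.65). Mitochondrial genes took 6.44%, 6.93% and 7.58% of WT 8, 7 and 9 and 8.41%, 8.54% and 9.78% of *Ifnk* TG 12, 10 and 11. The 15 genes are part of this share and were all higher together, so the counts above are not 15 separate results. Without library 11 the median was 0.35 and 3 of the 15 had an unadjusted p under 0.05, as had 597 of all 16173 genes.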

How the data were processed

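RNA of 12 inguinal lymph node libraries was measured, and the 6 after UVB were compared by genotype. Per the labels and the methods of the study, the authors trimmed reads with cutadapt 4.8, aligned them to GRCm38 with STAR 2.7.8a and estimated counts per gene with RSEM 1.3.3. The deposited values are these expected counts, as whole numbers without normalization. The annotation release is not given in the sources used here, and gene positions were added from GENCODE M21. The skin table was not used.

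The filter of low counts was that of edgeR 4.0.16 (filterByExpr by group, 10 counts in enough libraries and 15 in total) in R 4.3.3, and it left 16173 of 55491 genes. All 12 node libraries were scaled by TMM and fitted together by group with the robust quasi-likelihood model, and contrasts were tested with its F-test and Benjamini-Hochberg adjustment over all tested genes (threshold 0.05, two-sided). CPM are TMM scaled. Confidence intervals come from the F statistic. A list's mean in a library uses log2(CPM + 0.5), centred by gene. With 3 libraries against 3, an exact permutation test of a single value cannot go below p = 0.1, and none was used. The fit was tested on simulated counts. Libraries of a group differed by more than sampling noise (chi-square per degree of freedom 13.8 to 93.6), which does not show whether they came from separate mice.

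The comparison and the lists (23 pathway and 25 marker lists, 575 genes, of which 500 were tested and 3 were not found) were chosen with earlier results of these data known. Lists are described by counts and medians, with no test. For each list the text names up to 6 members with an adjusted p under 0.05 and otherwise the 2 with the smallest p (a few such genes are not reported here), and other genes are said to be chosen after their values were seen or for their role. Some further members at an unadjusted p under 0.05 are given. The kidney list was written after the data were examined, with 3 adrenal and liver genes that had 0 counts in *Ifnk* TG 11.

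Alternatives were DESeq2 1.42.0, RLE and upper-quartile scaling, no filter, at least 10 counts in every library, the 6 irradiated libraries alone, no robust estimation, *Xist* as a covariate, immunoglobulin genes removed, a threshold of 0.01, glmTreat with a log2 bound of 0.5 and each library left out. Added after the data were seen were limma 3.58.1 voom with quality weights, DESeq2 with each library left out, and interferon-stimulated genes with each of the 12 libraries left out. Promoters came from RefSeq (GRCm38.p6). Figures were drawn with matplotlib 3.10.9 in Python 3.11.15.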

Additional observations from a re-analysis of the deposited data

How the results depend on the processing

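The count of 0 genes by edgeR's quasi-likelihood test stayed at 0 under RLE and upper-quartile scaling, at least 10 counts in every library, the 6 irradiated libraries alone, no robust estimation, *Xist* as a covariate, immunoglobulin genes removed, an adjusted p under 0.01 and glmTreat with a log2 bound of 0.5. DESeq2 called 12 genes, 8 higher and 4 lower. No filter on low counts gave 1 gene, 1 lower (*Gm43802*), and limma voom with quality weights 1, 1 lower (*Gm42878*). With each irradiated library left out, edgeR called 0 to 2 genes, 0 higher and 0 to 2 lower. The 2 were *Gm43802* and *Dok2*, without *Ifnk* TG 10. DESeq2 called 2 to 576 genes, 61 without WT 7, 2 without WT 8, 28 without WT 9, 576 without *Ifnk* TG 10, 2 without *Ifnk* TG 11 and 237 without *Ifnk* TG 12. Without UVB DESeq2 called 4 genes, and for the interaction 8, against 0 by edgeR. The cause of these shifts was not tested.

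The 670 genes higher and 461 lower at an unadjusted p under 0.05 became 325 and 270 with the 6 irradiated libraries alone, 318 and 282 with *Xist* as a covariate, 262 and 86 by glmTreat and 1195 and 1074 by voom, whose weight for *Ifnk* TG 12 was 0.24. With each library left out they ranged from 335 to 1448 higher and from 186 to 1346 lower, at their highest without *Ifnk* TG 10 and at their lowest without WT 8.

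Because no gene passed in the main fit, the named genes could hardly change side of the threshold, and the size of a change was not counted. For 98 named genes, 1720 of 1741 values under these settings kept their direction and side of the threshold, 13 passed it (11 by DESeq2) and 8 changed sign. With *Xist* as a covariate, *Dsp* was at -0.15 and *Xist* at -0.0032. The other 6 came from leaving out 1 library, and the ranges over the 6 libraries left out were, in log2 fold change, -1.06 to 0.011 for *Il21* and -0.97 to 0.0897 for *Gcsam* (sign changed without WT 7), -0.0562 to 0.85 for *Ncr1* and -0.0627 to 0.29 for *Klrd1* (without *Ifnk* TG 10), -0.18 to 0.70 for *Dsp* (without *Ifnk* TG 11) and -0.10 to 0.66 for *Apol9b* (without *Ifnk* TG 12). Of 751 medians over 47 lists, 703 moved by less than the spread between libraries and 55 had another sign, 40 of these with a library left out. That spread can be wide. It was 0.54 for the type I interferon-stimulated genes, so their move from 0.57 to 0.14 without *Ifnk* TG 11 is among the 703. No paired analysis was possible because the labels number the libraries without repeating a number between groups. Genes at a few counts, such as the neutrophil markers, are limited by depth, since 3 counts are 0.0824 to 0.109 CPM.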
